A study of Mus musculus with 18 samples.

Results

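The comparison described here asks what the third copy of the interferon receptor genes adds in the spleen of Dp16 mice. It sets 6 libraries of Dp16 spleen against 6 of Dp16_2xIFNRs spleen, 12 of the 18 libraries of the series, and the members were chosen by the genotype in the sample titles. Dp16 mice, a model of trisomy 21, have a duplication on chromosome 16 that reaches from Lipi to Zbtb21. Dp16_2xIFNRs mice carry the same duplication, but the labels describe their interferon receptor dosage as normalized, so the receptor genes stand at 2 copies in place of 3. Both groups therefore share the duplication of the interval away from the receptor genes, in every cell of the body. The sample titles do not say where the normalized stretch ends, so the copies of other genes lying between the receptors are not given. The other 6 libraries are wild-type C57BL/6J spleen (WT) and appear only as a reference level. Each genotype has 3 males and 3 females, no treatment is given, and ages are labelled 17.1 to 18 with a tag of days post conception, although the series title speaks of adult tissue, so the unit of age is not interpreted. These age labels were uneven between the compared groups. Dp16 replicates 5 and 6 are labelled 17.1, whereas the Dp16_2xIFNRs labels run from 17.7 to 18. The labels number the samples without saying that each is a separate animal, so p-values measure the spread between these samples.

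The receptor cluster holds 4 neighbouring genes. Ifnar1 and Ifnar2 encode the chains of the type I interferon receptor, Ifngr2 encodes the signalling chain of the interferon gamma receptor, and Il10rb encodes a chain shared by the receptors of IL-10, IL-22 and the lambda interferons. These chains bind Janus kinases, which phosphorylate STAT proteins when ligand is present. Complexes of STAT proteins then bind the interferon-stimulated response element (ISRE) beside type I target genes and the GAS element beside interferon gamma target genes.

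With the third copy, the receptor genes were the called genes and no others were. Of 18634 tested genes, 4 were higher in Dp16 at a Benjamini-Hochberg adjusted p below 0.05 in edgeR's quasi-likelihood test (0.0215% of tested genes), and these were Ifnar2, Il10rb, Ifngr2 and Ifnar1. None was lower (0% of tested genes). At an unadjusted p below 0.05, 190 genes were higher (1.02%) and 248 lower (1.33%), together 2.35% of the genes. Evenly spread p-values would put 5% there, so the main fit gave fewer small p-values than that. The reason was not tested. DESeq2 and limma voom also called 4 higher and 0 lower, with 557 (2.99%) and 981 genes (5.26%) at an unadjusted p below 0.05. The median log2 fold change over all tested genes was 0.00 (9245 positive, 9389 negative), with Dp16 minus Dp16_2xIFNRs as the direction throughout.

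Depth and composition overlapped between the genotypes. The 12 libraries held 33998427 to 53021480 counts. Adult haemoglobin genes, a measure of red cell RNA, took 2.49% ± 0.542 of counts in Dp16 and 2.61% ± 0.590 in Dp16_2xIFNRs (SD, n = 6; two-sided exact permutation p = 0.714). Gm42418, whose model covers ribosomal RNA sequence, took 2.42% ± 1.71 and 1.77% ± 1.43 (exact permutation p = 0.435; 0.714 for both after adjustment over these 2 tests, with 0.00216 the smallest p possible). The first 2 principal components of the 12 libraries carried 15.7% and 11.9% of the variance, and the genotypes overlapped on both.

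Ifnar2, at chr16:91372783-91405589 on the plus strand (GRCm38), encodes the high-affinity ligand-binding chain of the type I receptor. Its level, in counts scaled to the library total by TMM (CPM), was 138, 133.6, 135.4, 154.5, 145.4 and 140.5 in the Dp16 libraries. In the Dp16_2xIFNRs libraries it was 90.25, 88.27, 90.88, 93.74, 96.56 and 102.4. The groups did not overlap, and the WT libraries ran from 82.82 to 91.06. The log2 fold change was 0.59 ± 0.060 (SE, n = 6 per group; adjusted p = 3.67e-05, edgeR), a 1.51-fold difference with a 95% interval of 1.38 to 1.64.

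Il10rb, at chr16:91406164-91425834 on the plus strand, begins just after Ifnar2 ends. The Dp16 libraries held 106.9, 104, 104.4, 119.6, 116.4 and 103 CPM, and the Dp16_2xIFNRs libraries 70.33, 72.27, 80.63, 73.51, 83.68 and 70.04 CPM. The lowest Dp16 library stood above the highest Dp16_2xIFNRs library, and the WT libraries ran from 73.02 to 83.48 CPM. The log2 fold change was 0.54 ± 0.066 (adjusted p = 0.000498, edgeR), which is 1.45-fold (1.32 to 1.60).

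Ifngr2, at chr16:91547072-91565623 on the plus strand, was at 120.8, 115.7, 94.38, 115, 124.5 and 118 CPM in Dp16. It was at 69.44, 77.22, 83.9, 78.91, 88.3 and 65.49 CPM in Dp16_2xIFNRs. The groups were separate here too, although Dp16 replicate 3 lay close to the highest Dp16_2xIFNRs library. The WT mean of 92.9 CPM lay between the means of 77.2 in Dp16_2xIFNRs and 114.7 in Dp16. The log2 fold change was 0.57 ± 0.081 (adjusted p = 0.00339, edgeR), which is 1.49-fold (1.32 to 1.67).

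Ifnar1, at chr16:91485238-91507441 on the plus strand, encodes the chain that binds the kinase TYK2. Dp16 libraries held 99.41, 126.8, 89.4, 113.5, 105.3 and 109.9 CPM, and Dp16_2xIFNRs libraries 85.53, 84.72, 69.53, 82.67, 73.67 and 69.59 CPM. The groups did not overlap, but the gap was small and the Dp16 values were the most spread of the 4 receptors in relation to their mean. The WT mean of 87.2 CPM lay between the means of 77.6 in Dp16_2xIFNRs and 107.4 in Dp16. The log2 fold change was 0.46 ± 0.078 (adjusted p = 0.0278, edgeR), which is 1.38-fold (1.23 to 1.54). This call was lost on leaving out Dp16 replicate 1, 2, 4, 5 or 6, or Dp16_2xIFNRs replicate 3, 4, 5 or 6, with log2 fold changes of 0.42 to 0.51 over the 12 omissions and adjusted p up to 0.14. The other receptors kept their calls in each omission.

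**Figure D1:**
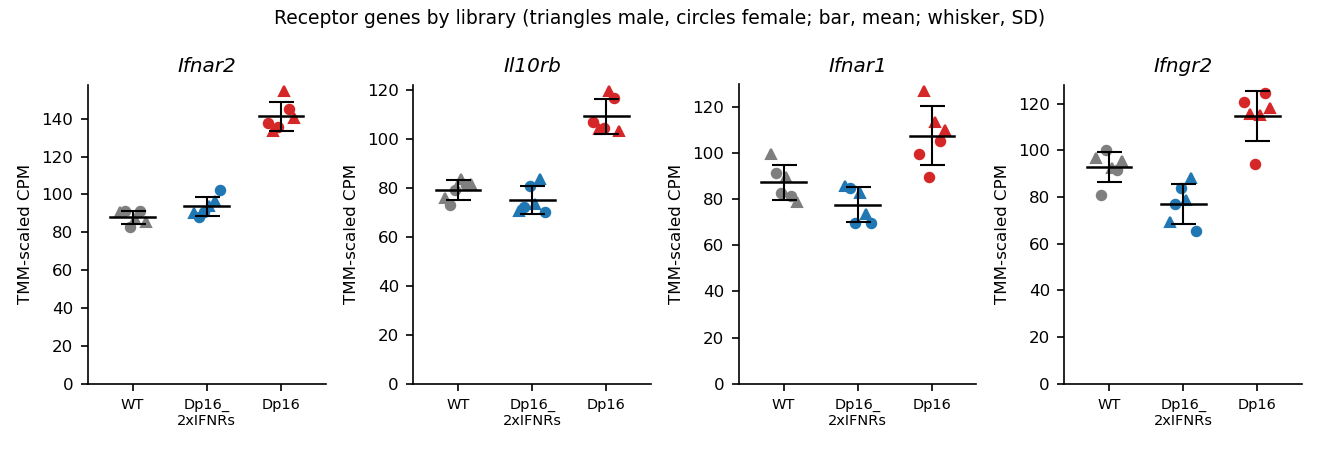
Level of the 4 receptor genes (TMM-scaled CPM, vertical axis from 0) in each library of WT, Dp16_2xIFNRs and Dp16, with triangles for males and circles for females, the mean as a horizontal bar and the SD as a whisker. In all 4 panels the 6 Dp16 libraries lie above the 6 Dp16_2xIFNRs libraries, with the narrowest gap in Ifnar1 (89.4 against 85.53 CPM).

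The 4 receptors differed by about the ratio of the gene copies. The ratio of 3 copies to 2 is 1.5, or 0.585 on the log2 scale, and it lay inside the 95% interval of each receptor. A test against that ratio gave p of 0.903 for Ifnar2, 0.49 for Il10rb, 0.873 for Ifngr2 and 0.136 for Ifnar1 in the same model (0.545 to 0.903 after adjustment over the 4), which does not show that the ratios were equal to it. Per gene length, in the deposited RPKM, Il10rb was the highest receptor in Dp16 at 57.4 ± 4.55 (SD, n = 6), followed by Ifnar2 at 43.3 ± 2.92. Ifngr2 at 30.2 ± 3.61 and Ifnar1 at 26.8 ± 3.32 RPKM followed, and these neighbours lay within their spread of each other. In Dp16_2xIFNRs the order was the same, at 39.5 ± 2.09, 28.7 ± 1.23, 20.3 ± 1.94 and 19.4 ± 2.49 RPKM. The share of Ifnar2 in the summed RPKM of the 4 receptors was 27.5% with the third copy and 26.6% without, so the receptor mix was nearly the same in both.

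The span from the start of Ifnar2 to the end of Ifngr2 is 192.8 kb and holds 12 gene models, of which 7 had enough counts to be tested. A930006K02Rik, a long noncoding RNA gene between Il10rb and Ifnar1 (chr16:91465025-91470128, plus strand), was at 7.193, 8.218, 6.955, 7.577, 4.362 and 4.834 CPM in Dp16. In Dp16_2xIFNRs it was at 4.783, 3.906, 2.731, 2.648, 3.749 and 4.008 CPM. A single Dp16 library lay within the Dp16_2xIFNRs range. Its log2 fold change was 0.84 ± 0.20 (95% interval 0.43 to 1.24), with an unadjusted p of 0.000325 from the edgeR model and an adjusted p of 1, so it did not pass. It overlaps the pseudogene Gm49626, which is also on the plus strand, so strand cannot separate reads from the stretch they share. Gm49625, a noncoding gene on the minus strand, had a log2 difference of 1.07 ± 1.01 on 78 against 41 counts in all, and the pseudogene Gm7860 one of 0.25 ± 0.45. The readthrough model Gm21970, which spans Ifnar2 and Il10rb, held 12 counts over the Dp16 libraries and 0 over the Dp16_2xIFNRs libraries, under the filter.

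Outside that span, no gene of the duplicated interval passed the test. Of 113 tested interval genes, 106 lie outside the span; 51 had a positive and 55 a negative log2 fold change, with a median of -0.01 beside 0.00 over all tested genes. None was called, where 0.0215% and 0% of all tested genes were called higher and lower, and none had an unadjusted p below 0.05. The 95% interval of 77 of the 106 lay wholly below the copy ratio, and that of 65 lay inside 1.5-fold in both directions. Upstream, the nearest coding genes Paxbp1 (0.00 ± 0.10), Synj1 (0.06 ± 0.10) and Cfap298 (-0.13 ± 0.10) had small log2 differences, and downstream so did Tmem50b (-0.04 ± 0.088), Gart (0.04 ± 0.060) and, with a wider error, Dnajc28 (0.04 ± 0.19). Noncoding models nearby were wide. Gm15964, between Tmem50b and Dnajc28, was at 0.63 (95% interval -0.02 to 1.28), which holds both 0 and the copy ratio. Upstream, the pseudogene H3f3a-ps2 was at -0.72 (-2.0 to 0.56). Gart, an enzyme of purine synthesis, shows the precision that the libraries allow. Its Dp16 values were 160.5, 165.8, 153.1, 149.7, 153.7 and 160.2 CPM and its Dp16_2xIFNRs values 153.7, 156.9, 144.5, 150.8, 153.5 and 160.6 CPM, overlapping almost throughout and all above the WT range of 81.88 to 100.7. Interval genes often studied in trisomy 21 had small log2 differences too. Sod1, a superoxide dismutase, was at 0.01 (95% interval -0.18 to 0.20), App, the amyloid precursor gene, at 0.14 (-0.10 to 0.37), and the kinase gene Dyrk1a at 0.08 (-0.07 to 0.23). Mx1 and Mx2, of the family of antiviral GTPases, are themselves interferon targets and at 3 copies in both strains, and both are annotated as polymorphic pseudogenes. Their log2 differences were -0.04 (-0.25 to 0.17) and -0.28 (-0.59 to 0.03).

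**Figure D2:**
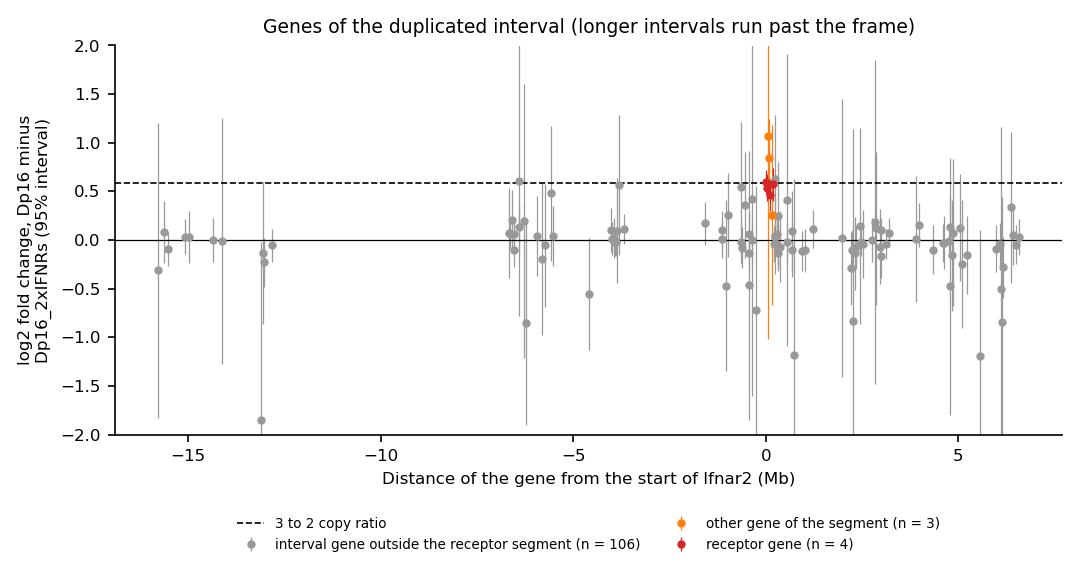
Log2 fold change (Dp16 minus Dp16_2xIFNRs, with its 95% interval) of 113 tested genes of the duplicated interval against their distance from the start of Ifnar2 in Mb. The receptor genes (red, 0.46 to 0.59) lie at the dashed line of the 3 to 2 copy ratio, while the 106 interval genes outside the receptor segment (grey) have a median of -0.01.

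Receptor chains encoded elsewhere pair with the products of the cluster. Ifngr1, the ligand-binding chain of the interferon gamma receptor, had a log2 difference of 0.01 ± 0.073, with 152.8 to 199.2 CPM in Dp16 and 157.8 to 182.5 CPM in Dp16_2xIFNRs. Il10ra, the ligand-binding chain of the IL-10 receptor, had one of -0.20 ± 0.10, with 109.6 to 162.1 CPM and 102.4 to 169.6 CPM. Ifnlr1, the specific chain of the lambda interferon receptor, was the member with an unadjusted p below 0.05 (log2 difference 0.38 ± 0.18, adjusted p = 1, edgeR). Its 6 Dp16 libraries ran from 5.102 to 8.676 CPM and the Dp16_2xIFNRs libraries from 3.67 to 6.887, so the groups overlapped. Of the 6 tested partner chains, none was called, and their median log2 fold change was -0.10.

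Ligand transcripts were scarce. Of 22 genes for interferons and IL-10 family cytokines, 2 passed the filter on low counts, Ifng (0.59 ± 0.33) and Il10 (-0.36 ± 0.67), and neither was called. Ifng, the interferon of T and NK cells, was at 0.7231 to 2.169 CPM in Dp16 and 0.6258 to 1.083 CPM in Dp16_2xIFNRs. Ifnb1 had 0 counts over all 12 libraries, and a count of 0 allows up to 3 counts, 0.0566 to 0.0882 CPM by library. Such floors cover counting error only.

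The kinases and STATs that carry the receptor signal had tight bounds. All 11 tested genes had a 95% interval inside 0.32 on the log2 scale in both directions, and none was called or had an unadjusted p below 0.05. Their log2 fold changes ran from -0.05 to 0.11, with a median of 0.02. Jak1, a kinase used by each of these receptors, was at 425, 418.5, 337.9, 360.2, 381 and 375.3 CPM in Dp16 and at 418.9, 390.7, 373.9, 368.4, 330.1 and 325.4 CPM in Dp16_2xIFNRs. The values covered nearly the same range, and the log2 difference was 0.06 ± 0.078. Tyk2, the kinase bound by IFNAR1, and Irf9, a partner of STAT proteins at the ISRE, had log2 differences of 0.02 ± 0.089 and 0.06 ± 0.090. The 15 feedback inhibitors, all bounded inside 1.5-fold, had a median of 0.03 and no call. Among them Usp18, which restrains signalling at the type I receptor, was at 0.13 ± 0.12, Socs1, an inhibitor of Janus kinases, at 0.12 ± 0.11, and Socs2 at -0.21 ± 0.12.

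Type I interferon-stimulated genes did not differ by an amount these libraries could call. Of 64 tested genes of this list, 0 were called, 40 had a positive and 24 a negative log2 fold change, and the median was 0.05 (0.00 over all tested genes). With 1 library left out, this median ran from 0.01, without Dp16 replicate 6, to 0.07. Those with an unadjusted p below 0.05 numbered 2 higher and 1 lower, where 1.02% and 1.33% of all tested genes fell there. The estimates ran from -0.33 (Cxcl10) to 0.32 (Oasl2). The mean log2 CPM of the list was 5.43 ± 0.092 in Dp16 and 5.38 ± 0.053 in Dp16_2xIFNRs (SD, n = 6), and 5.26 ± 0.10 in WT.

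Among the antiviral effectors, Oasl2, a relative of the oligoadenylate synthetases, was at 77.07, 41, 61.93, 40.27, 49.92 and 57.42 CPM in Dp16 and 37.21, 45.47, 48.43, 34.68, 45.76 and 49.18 CPM in Dp16_2xIFNRs. The groups overlapped, with 4 Dp16 libraries above all Dp16_2xIFNRs libraries, and the log2 difference was 0.32 ± 0.11 (unadjusted p = 0.0114 in the edgeR model, adjusted p = 1). Oas1a, a synthetase that activates RNase L through its product, had a log2 difference of 0.26 ± 0.10 (unadjusted p = 0.016, adjusted p = 1, edgeR), with 22.58 to 35.59 CPM against 18.54 to 27.74. Oas1a has close relatives in its cluster, and how shared reads were counted is not stated.

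Isg15, a ubiquitin-like modifier and a standard readout of interferon, was at 120.7, 92.41, 200.6, 126, 104.5 and 171.7 CPM in Dp16. In Dp16_2xIFNRs it was at 149.7, 88.49, 95.49, 89.65, 131 and 168.5 CPM. The overlap was wide, and both duplicated strains lay above the WT range of 16.25 to 66.8 CPM. The log2 difference of 0.16 ± 0.29 had a 95% interval from -0.47 to 0.79. Ube2l6, which transfers ISG15 to its targets, had 0.06 ± 0.22. Ifitm3, a membrane protein that blocks virus entry, had 0.01 ± 0.086, with 125.1 to 175.6 CPM against 119.9 to 178. Lgals3bp, at 0.15 ± 0.10, and Ifi27l2a, at 0.00 ± 0.14, complete the members highest per gene length. Cxcl10, a chemokine gene induced by both kinds of interferon, pointed the other way. Its Dp16 values were 19.86, 19.43, 17.62, 18.07, 20.13 and 16.75 CPM, and its Dp16_2xIFNRs values 22.06, 24.42, 27.36, 23.08, 24.42 and 19.55 CPM. The groups overlapped only at the lowest Dp16_2xIFNRs library, and the log2 difference was -0.33 ± 0.11 (unadjusted p = 0.00517 in the edgeR model, adjusted p = 1).

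**Figure D3:**
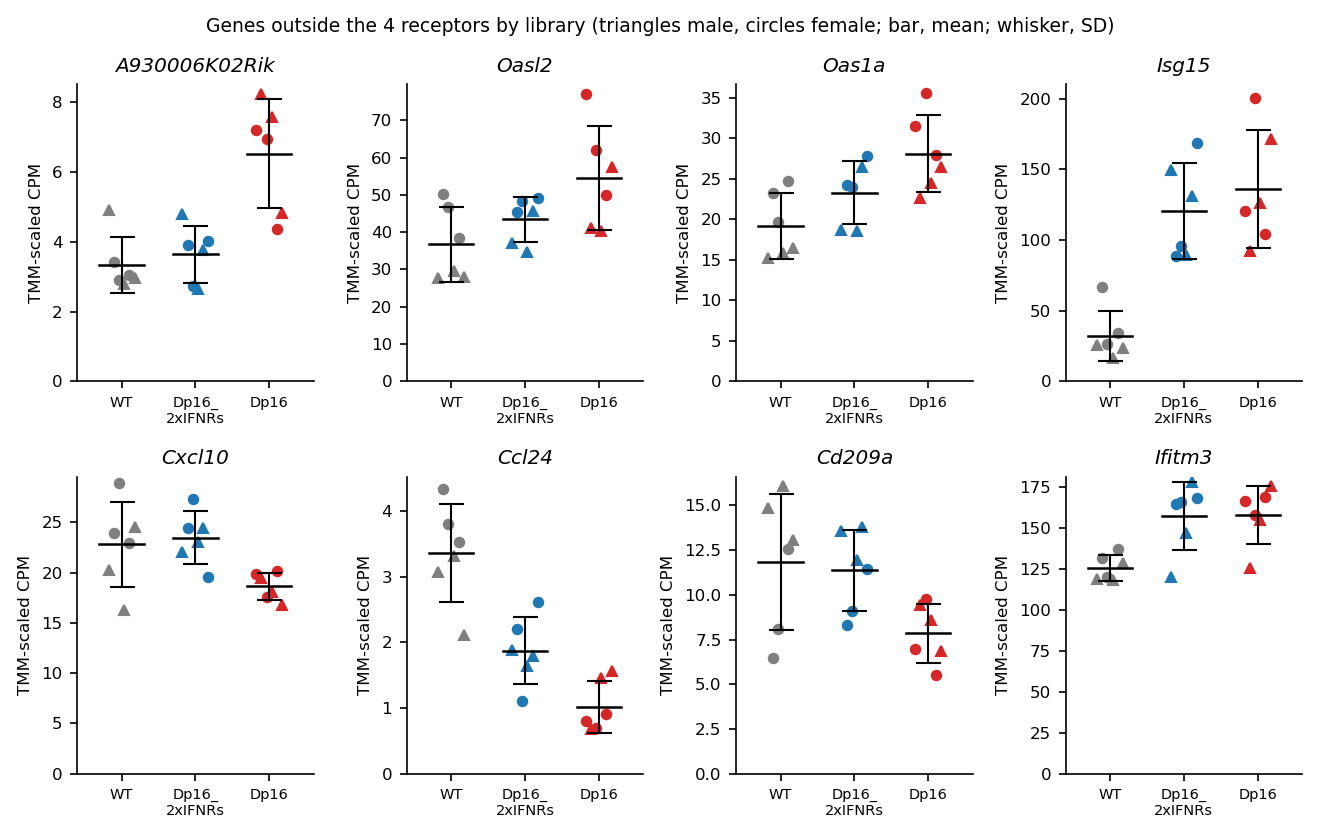
Level (TMM-scaled CPM, vertical axes from 0) of 8 genes outside the 4 receptors in each library, with triangles for males, circles for females, the mean as a bar and the SD as a whisker. None of the 8 passed the adjusted threshold between Dp16 and Dp16_2xIFNRs, and Isg15 lay above the WT range in both duplicated strains.

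Promoter sequence gave another way to define interferon targets. Windows from 250 bases before to 50 after the gene start were taken from RefSeq (GRCm38.p6), and 12379 tested genes outside the receptor span matched one by symbol. The ISRE core GAAANNGAAA, searched on both strands, occurred in 3.44% of 32851 windows, and in 27 of the 50 type I list genes that have a window (54.0%). Of the 19 named interferon target and receptor genes, 13 have a window, and 5 of these hold the core. Stretches are shown for the 3 in which it ends before the gene start, which leaves out Ifitm3 (log2 difference 0.01) and Psme1 (-0.01). Capitals mark the core and overlapping copies are joined. Each stretch is written along the strand of the gene, which is the minus strand in all 3.
Isg15, chr4:156200860-156200911: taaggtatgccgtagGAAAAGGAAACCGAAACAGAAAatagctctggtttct
Oas1a, chr5:120907526-120907560: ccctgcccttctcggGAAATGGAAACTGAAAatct
Cxcl10, chr5:92349078-92349117: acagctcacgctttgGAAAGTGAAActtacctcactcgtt
Isg15 holds 3 overlapping cores, Oas1a 2 and Cxcl10 1, with log2 differences of 0.16, 0.26 and -0.33. Over the 488 genes with an ISRE core, the median log2 fold change was 0.01, none was called, and 5 were higher and 10 lower at an unadjusted p below 0.05. Among the 11891 genes without it the median was 0.00, none was called, and 119 were higher and 142 lower at that p. The GAS core TTCNNNGAA, which reads the same on both strands, occurred in 8.3% of windows, and the 1028 tested genes that hold it had a median of 0.00 with no call. Ifnar1 and Ifnar2 hold a GAS core in these windows; Ifngr2 has neither core there. A match of letters is a description and not a bound site.

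Interferon gamma targets were as close. Of 45 tested genes, 0 were called and 0 had an unadjusted p below 0.05; 21 were positive and 24 negative, with a median of -0.01. Cd74, the invariant chain that guides MHC class II molecules, was at 5586, 6877, 5455, 6373, 5331 and 6208 CPM in Dp16 and 5207, 6498, 6061, 7006, 6895 and 5127 CPM in Dp16_2xIFNRs. Both groups lay in the same range, and the log2 difference was -0.04 ± 0.078. The class II genes H2-Ab1 (-0.05 ± 0.084), H2-Aa (-0.11 ± 0.086) and H2-Eb1 (-0.04 ± 0.083) and the proteasome activator gene Psme1 (-0.01 ± 0.082) were similar. The members with the smallest p were the predicted gene Gm4951 (0.36 ± 0.20), then Gbp10 (0.56 ± 0.37), a guanylate-binding protein gene with close relatives, Nos2 (-0.28 ± 0.21), the inducible nitric oxide synthase, and H2-Aa. All 22 tested genes of MHC class I presentation were bounded inside 0.32 on the log2 scale, with a median of -0.01. Among them B2m, the light chain of class I molecules, was at 2840 to 3486 CPM in Dp16 and 2539 to 3543 CPM in Dp16_2xIFNRs (0.03 ± 0.083).

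Genes that respond to IL-10 showed no call in 18 tested members, with a median of -0.01 (8 positive, 10 negative). Hmox1, haem oxygenase, was at 0.09 ± 0.11, Tsc22d3, a glucocorticoid-induced leucine zipper gene, at -0.11 ± 0.25, and Ddit4 at -0.02 ± 0.24. Inflammatory cytokine and chemokine genes were mostly low and leaned lower in Dp16, with 7 positive and 19 negative of 26, a median of -0.25 and no call. An unadjusted p below 0.05 was reached by 4 members, all lower: Ccl24, Cxcl10, Ccl4 and Ccl2, where 1.33% of all tested genes were lower at that p. Ccl24, an eosinophil chemokine, was at 0.7946, 0.6721, 0.693, 1.458, 0.9097 and 1.562 CPM in Dp16 and at 1.877, 2.203, 1.108, 1.639, 1.795 and 2.607 CPM in Dp16_2xIFNRs. The groups overlapped, and the log2 difference was -0.88 ± 0.27 (unadjusted p = 0.00369 in the edgeR model, adjusted p = 1). Without the libraries above 4% Gm42418, which removes 2 Dp16 and 1 Dp16_2xIFNRs library along with 1 WT library, the median of this list was -0.09, and without Dp16_2xIFNRs replicate 5 alone it was -0.15. The part of these libraries in the shift was not tested.

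In bulk spleen, fewer cells of a type and less RNA per cell cannot be told apart, so marker lists stand for either. None of the cell type lists had a call. Neutrophil markers leaned higher in Dp16 (19 of 20 positive, median 0.15), and plasma cell markers leaned lower (1 positive, 15 negative, median -0.19). S100a8, an abundant neutrophil protein gene, ran from 558.8 to 1993 CPM in Dp16 and from 639.8 to 1069 CPM in Dp16_2xIFNRs, and its log2 difference was 0.15 ± 0.20. With erythroid and neutrophil terms the neutrophil median was -0.01. That neutrophil term is the mean level of these same markers, so the fit cannot test their lean. The median became -0.06 with the age label in the model, but 0.23 with genotype as the sole term and 0.32 without libraries above 4% Gm42418. It was 0.03 without Dp16 replicate 5, the library with the highest S100a8, 0.06 without Dp16 replicate 6 and 0.09 without Dp16_2xIFNRs replicate 6. With a term for the library index it was 0.01. The plasma cell median was -0.12 without Dp16 replicate 1, -0.30 with the library index term and -0.29 with limma voom. Members of such a list share their cells and libraries, so a count of signs is no separate evidence for each gene. Ighg1, an antibody heavy chain gene, had 1 library far above the others, Dp16_2xIFNRs replicate 6 at 3275 CPM, and a log2 difference of -0.85 ± 0.58 that was -0.06 without it.

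The remaining lists are given by their medians, beside 0.00 over all tested genes. Erythroid markers (25 tested) had a median of -0.04, B cell markers (16) -0.07, T cell markers (19) 0.05, regulatory T cell markers (7) 0.05, NK and cytotoxic markers (15) -0.07 and monocyte markers (12) -0.02. Red pulp macrophage markers (17) were at -0.03, endothelial markers (13) at 0.00, platelet markers (16) at 0.02, basophil and mast cell markers (11) at -0.12 and dendritic cell markers (15) at -0.10. Stem and progenitor markers (12) were at -0.03, cell cycle genes (30) at 0.01 and haem synthesis genes (13) at -0.05. Single members stood out without passing: Cd209a, a lectin of dendritic cells, at -0.51 ± 0.17, and Pdgfra, a receptor of stromal cells, at 0.48 ± 0.19 among 18 stromal markers with a median of 0.13 (14 positive, 4 negative). Adipocyte markers (7 tested) were low and wide, with a median of 0.46, and of 14 pancreatic acinar genes 1 was tested, Cela1 (-0.09 ± 0.14).

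**Figure D4:**
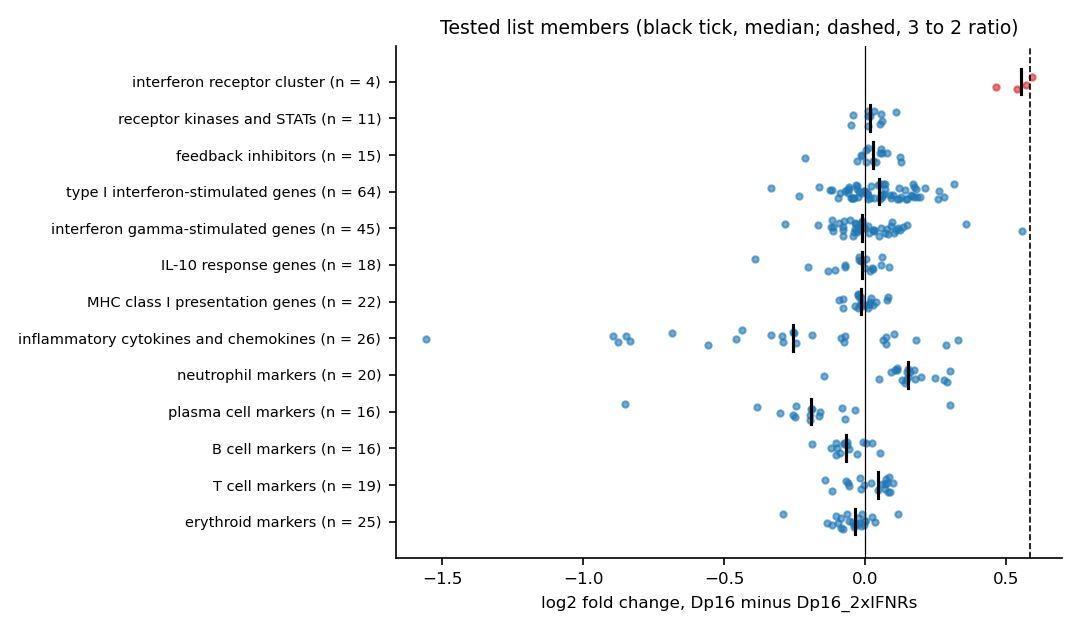
Log2 fold change (Dp16 minus Dp16_2xIFNRs) of each tested member of 13 gene lists, with a black tick at the list's median and a dashed line at the 3 to 2 copy ratio. The 4 receptors (red) have a median of 0.56, and the medians of the other lists run from -0.25 to 0.15. Single members of other lists reach the receptor values, such as Gbp10 at 0.56.

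The size of effect that could be missed depended on the level of the gene. Over all tested genes the 95% interval reached a median of 0.32 on the log2 scale to each side of the estimate. The interval lay inside 0.32 on that scale in both directions for 6950 genes (37.3%), inside 1.5-fold for 11245 (60.3%) and inside 2-fold for 13728 (73.7%). Each gene is bounded by its own 95% interval, whatever its p, with no correction for the number of genes. Some true differences can therefore lie outside these bounds. For 4155 genes below 1 CPM the interval reached a median of 2.71-fold to each side and none lay inside 1.5-fold. From 1 to 10 CPM it was 1.40-fold, with 40.7% of 4558 genes inside 1.5-fold. From 10 to 100 CPM it was 1.16-fold with 94.7% of 7890 genes inside, and above 100 CPM 1.13-fold with 94.3% of 2031.

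A call asks for more than an interval that leaves out 0. The largest p among the called genes was 5.97e-06, and at that p the median gene needed an estimated difference of 1.89-fold. A difference estimated at 1.5-fold would have been called in 4747 genes (25.5%) and one estimated at 2-fold in 9846 (52.8%). No gene below 1 CPM could be called at either. A true difference of such a size can be estimated smaller and then be missed. The figures hold for the edgeR fit, which gave few small p-values. They also hold for the number of calls made here, since the adjusted threshold eases as more genes change. For the 64 type I targets the interval reached a median of 1.17-fold to each side. Of these targets, 57 were bounded inside 1.5-fold and all 64 inside 2-fold. An estimate of 1.5-fold could have been called in 23 and one of 2-fold in 52. The 7 not bounded inside 1.5-fold were Isg15, Rsad2, Oas3, Oas1g, Ifi44, Ifit1bl2 and Gm12185. Isg15 would have needed an estimate of 4.07-fold to be called and Oasl2 1.60-fold, whereas Jak1 needed 1.38-fold. Of 45 interferon gamma targets, 39 were bounded inside 1.5-fold, and the other 6 were Gbp2b, Gbp10, Gbp11, Gm4951, Nos2 and Ido1. Of 18 IL-10 response genes 15 were bounded inside 1.5-fold, all but Cd163, Tnip3 and Tsc22d3.

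**Figure D5:**
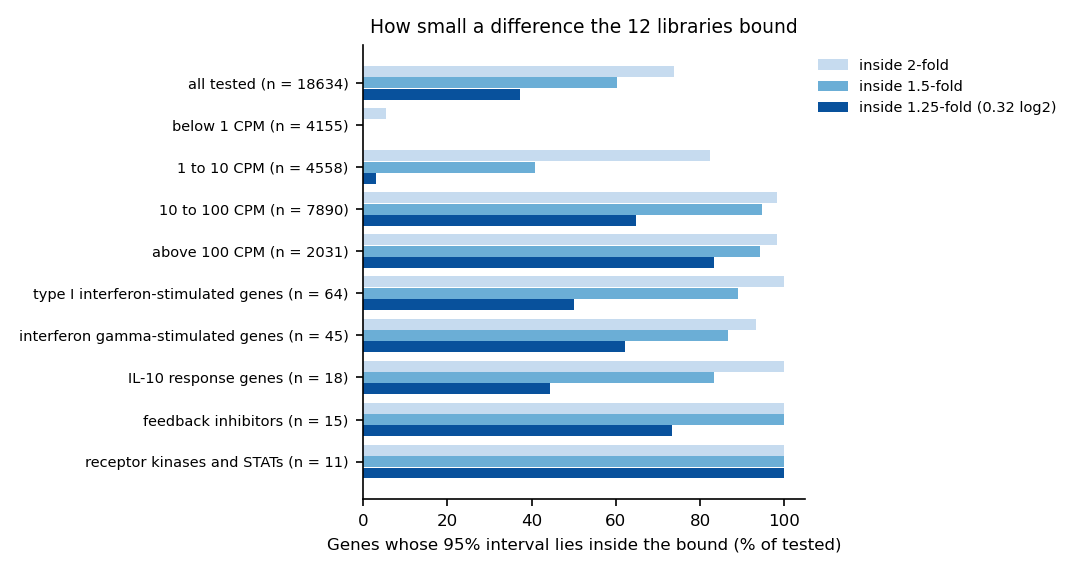
Share of tested genes (%, horizontal axis from 0) whose 95% interval for the Dp16 minus Dp16_2xIFNRs difference lies inside 3 bounds, 0.32 on the log2 scale (dark), 1.5-fold and 2-fold (lighter), for all genes, for 4 classes of mean level and for 5 gene lists. Below 1 CPM none is bounded inside 1.5-fold, while all 11 receptor kinases and STATs are bounded inside the narrowest bound.

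The difference was also set against sex, with 3 males and 3 females in each genotype. The test of the interaction called 0 genes with edgeR (0% of tested genes), with 425 at an unadjusted p below 0.05 (2.28%), while DESeq2 called 5. These were Igkv10-95, Klhl32, 4732465J04Rik, Gm36423 and Gm26760, of which 4 had between 64 and 163 counts over all 12 libraries and were without a count in 3 or more of them. Igkv10-95 is an antibody variable segment with 2044 counts. By sex, the log2 fold change of Ifnar2 was 0.57 ± 0.091 in females and 0.61 ± 0.091 in males, that of Il10rb 0.56 ± 0.10 and 0.52 ± 0.10, Ifngr2 0.58 ± 0.12 and 0.56 ± 0.12, and Ifnar1 0.39 ± 0.11 and 0.53 ± 0.11. The male minus female difference of Ifnar1 was 0.14 ± 0.16 (adjusted p = 1, edgeR). The smaller groups reached few calls, 0 in females and 1 in males, Ifnar2. Their median standard errors were 0.218 and 0.219, against 0.153 in the main fit.

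Ranked by p, the genes outside the receptor span, none of which passed, began with Apol7c, an apolipoprotein L gene, with 41.2 to 72.3 CPM in Dp16, 52.5 to 81.4 CPM in Dp16_2xIFNRs and a log2 difference of -0.39 ± 0.094 (unadjusted p = 0.000477 in the edgeR model, adjusted p = 1). Serpina12, a serine protease inhibitor gene known from fat tissue, came next at 0.53 ± 0.44 CPM in Dp16 and 0.048 ± 0.061 CPM in Dp16_2xIFNRs (SD, n = 6), levels near the floor of a count. Its adjusted p was 1 in edgeR and 0.0522 in DESeq2.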

How the data were processed

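Poly(A) RNA of mouse spleen was sequenced as 150 bp paired-end reads, strand-specific, per the labels' protocols. The deposited counts are the authors' whole-number reads per gene. Tools listed in the submitters' processing notes, without roles, are HISAT2 2.1.0, HTSeq 0.6.1, SAMtools 1.5, FastQC 0.11.5 and bcl2fastq, and the build is GRCm38; the strand setting is not given in the sources used here. The deposited RPKM are the authors' counts per library total and gene length (relative deviation at most 8.9e-16 over 11538 genes with at least 100 counts in every library). Positions came from GENCODE on GRCm38 for 55144 of 55385 genes.

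Genes kept by filterByExpr (18634) were scaled by TMM and fitted in edgeR 4.0.16 (quasi-likelihood, robust, R 4.3.3) over all 18 libraries, with genotype and sex as terms. Calls needed an adjusted p below 0.05 by Benjamini-Hochberg. Errors are standard errors and 95% intervals use the t quantile of the fit. CPM values use TMM-scaled totals. DESeq2 1.42.0 and limma 3.58.1 (voom, and limma-trend on log2(RPKM + 0.1)) were alternatives, beside other scalings, filters, terms and omitted libraries. The steps were tested on simulated data. No library was a copy of another: chi-square values divided by their degrees of freedom were 33.7 to 193 over the 30 pairs within Dp16 or within Dp16_2xIFNRs.

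Named genes are the 4 receptors, tested genes between Ifnar2 and Ifngr2, the 3 nearest coding genes on each side and, per list, members highest in RPKM or smallest in p; interval genes and the genes of smallest p elsewhere were added after their values were seen. Members and lists were chosen with earlier results of these data known.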

Additional observations from a re-analysis of the deposited data

Results flagged for a closer look

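Among 216 sets of 6 libraries (the named genes and the 2 shares of counts, in each duplicated genotype), 12 held a library far from its 5 neighbours by Dixon's test (5.56%). Chance alone picks about 1 in 20 such sets. No explanation was weighed for these libraries.

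In Dp16 replicate 5, a female library, Hmox1 (haem oxygenase) stood at 890.5 CPM while the others ran from 515.1 to 620.3, and the platelet genes Ppbp and Clec1b stood at 457.9 (others 126.5 to 217.9) and 54.98 CPM (others 32.7 to 40.84). The basophil protease gene Prss34 was at 66.5 CPM there (others 18.88 to 35.07). In Dp16 replicate 3, Ifngr2 was low at 94.38 CPM (others 115 to 124.5) and the lymphoid chemokine gene Ccl21a high at 118.5 CPM (others 91.11 to 98.55). In Dp16 replicate 2, the noncoding gene Gm49625 was at 1.039 CPM (others 0.06998 to 0.415) and Gzma, a granzyme gene, at 41.33 CPM (others 20.12 to 27.78).

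In Dp16_2xIFNRs replicate 1, Synj1, a neighbour of the receptor span, was high at 89.49 CPM (others 48.05 to 61.05), and Irf9, part of the type I signalling complex, at 122.9 CPM (others 94.52 to 103.8). Ccl6, a myeloid chemokine gene, was at 115.2 CPM in Dp16_2xIFNRs replicate 5 (others 35.22 to 53.19). Ighg1 was at 3275 CPM in Dp16_2xIFNRs replicate 6 (others 134.1 to 775.1).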

How the results depend on the processing

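The comparison was repeated in 30 other settings: 12 that leave out 1 library of the 2 groups and 18 that change the tool, scaling, filter, terms or samples. No gene outside the 4 receptors was called in any of them, and none was lower. Ifnar2, Il10rb and Ifngr2 were called in all 30, with log2 fold changes of 0.56 to 0.63, 0.50 to 0.60 and 0.53 to 0.67. Ifnar1 kept its direction but missed the threshold with limma-trend on log2(RPKM + 0.1) (0.46, adjusted p = 0.258), with the 12 libraries fitted alone (0.46, adjusted p = 0.156), with genotype as the sole term (0.47, adjusted p = 0.0744), with the age label as a term (0.48, adjusted p = 0.0609) and without libraries above 4% Gm42418 (0.44, adjusted p = 0.24); the cause was not tested. Leaving out 1 library gave Ifnar1 values of 0.42 to 0.51 (adjusted p from 0.00848 to 0.14), with the call lost in 9 of 12 omissions. The count of genes higher in Dp16 was 3 or 4 throughout.

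The sex interaction gave 5 genes with DESeq2 against 0 with edgeR. Genes bounded inside 1.5-fold numbered 10195 to 11984. Same-numbered Dp16 and Dp16_2xIFNRs libraries had a mean correlation of deviations of 0.017 over 6 pairs (-0.132 to 0.151), against -0.0034 for other pairs. So few pairs cannot settle whether the numbers pair the samples. With the sample number as a replicate block, 4 genes were higher and 0 lower, with 460 at an unadjusted p below 0.05. With the unexplained code of the sample descriptions as a random block in limma voom (consensus correlation 0.165), 4 genes were higher and 0 lower. Over the 30 settings the median of the type I list ran from 0.01 to 0.07 and that of the interferon gamma list from -0.04 to 0.02. A930006K02Rik had its lowest adjusted p in the model with erythroid and neutrophil terms (adjusted p = 0.0556).

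No gene below 1 CPM was bounded inside 1.5-fold, and some above 100 CPM were not either. Isg15, with means of 136 CPM in Dp16 and 120 CPM in Dp16_2xIFNRs, was also not bounded there.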
